A study of Mus musculus with 3 samples.

Results

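The genes described here are 10 genes of late epidermal differentiation: Lor, Ivl, Flg, Flg2, Casp14, Cdsn, Krtdap, Sbsn, Dmkn and Abca12. They were chosen by symbol, and each matched 1 of the 31053 genes in the count tables. The study sequenced single cells from dorsal skin of 7 week old C57BL/6 mice in 3 droplet libraries, 1 per group. Mice of the IMQ+celastrol library received both celastrol, a triterpenoid from a medicinal vine, and imiquimod, and mice of the IMQ library received imiquimod. Imiquimod activates Toll-like receptors and is used to induce psoriasis-like inflammation in mouse skin. Mice of the normal library, the controls, received glycerin. The labels do not give doses, days, the vehicle of the imiquimod groups or the number of animals behind a library. With 1 library per group no difference below has a replicate check, and none was tested.

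As keratinocytes leave the basal layer they switch from the keratins Krt5 and Krt14 to Krt1 and Krt10. In the granular layer they make the proteins of the cornified envelope, which transglutaminases crosslink beneath the plasma membrane. Loricrin (Lor) is the main envelope protein and involucrin (Ivl) an early scaffold of it. Filaggrin (Flg) and filaggrin-2 (Flg2) are made as large precursors, stored in keratohyalin granules, and cut into pieces that bundle keratin and then break down to moisture-holding amino acids. Caspase-14 (Casp14) is a protease of that breakdown. Corneodesmosin (Cdsn) holds cornified cells together. Krtdap, Sbsn and Dmkn encode small secreted proteins of stratified epithelia, and Abca12 encodes the transporter that loads lipid into lamellar granules.

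The genes lie at 5 places in the mouse genome (GRCm38, annotated genes). Lor (chr3:92080271-92083142, minus strand), Ivl (chr3:92570902-92573735, minus), Flg2 (chr3:93197278-93221391, plus) and Flg (chr3:93273523-93293686, plus) belong to the epidermal differentiation complex, and Lor to Flg spans 52 protein-coding genes. Sbsn (chr7:30751471-30756134, plus), Dmkn (chr7:30763756-30781063, plus) and Krtdap (chr7:30787896-30791097, plus) are 3 neighbours with no other protein-coding gene between them. Casp14 (chr10:78711991-78718294, minus), Cdsn (chr17:35552128-35557180, plus) and Abca12 (chr1:71242276-71414910, minus) stand alone. Flg overlaps the pseudogene Rplp0-ps1 and Sbsn the transcript Tmem147os on the same strand. If these partners were in the annotation used for counting, which was not checked, reads of the overlaps could be affected.

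Most of the members share a promoter feature that the choice by symbol did not use. All 10 matched a RefSeq promoter window of 300 bases (GRCm38.p6). The AP-1 site TGANTCA, which reads the same on both strands, stood in a window of 7 of the 10 genes, against 8.97% of the 27025 genes with a window. Those 7 were Lor, Flg, Flg2, Ivl, Krtdap, Sbsn and Dmkn, and Cdsn, Casp14 and Abca12 had no match. TATAAA, searched on both strands, stood in windows of 4 members (Lor, Flg, Ivl and Krtdap), against 15.7% of genes. A match is a description of letters and not a measured site. N stands for any base, and the matches of Flg and Flg2 held an A there. The 130 bases before RefSeq's start site, which can lie some bases from the gene ends above, are shown for the 4 members of the epidermal differentiation complex with the AP-1 match in capitals. Casp14 is shown beside them as a member with no match. Cdsn and Abca12 also had no match, and a link between a match and a gene's level was not tested.
Lor, chr3:92083143-92083272, minus strand: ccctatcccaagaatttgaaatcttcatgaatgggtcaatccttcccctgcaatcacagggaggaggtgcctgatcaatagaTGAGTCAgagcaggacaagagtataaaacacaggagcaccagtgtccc
Ivl, chr3:92573736-92573865, minus strand: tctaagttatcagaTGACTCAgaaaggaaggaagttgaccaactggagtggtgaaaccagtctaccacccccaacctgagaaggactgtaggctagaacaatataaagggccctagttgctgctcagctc
Flg, chr3:93273416-93273545, plus strand: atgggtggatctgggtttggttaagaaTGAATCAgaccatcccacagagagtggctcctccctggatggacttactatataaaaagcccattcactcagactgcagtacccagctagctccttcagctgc
Flg2, chr3:93197143-93197272, plus strand: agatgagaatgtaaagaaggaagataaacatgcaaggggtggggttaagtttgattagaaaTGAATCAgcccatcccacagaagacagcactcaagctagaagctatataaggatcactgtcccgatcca
Casp14, chr10:78718294-78718423, minus strand: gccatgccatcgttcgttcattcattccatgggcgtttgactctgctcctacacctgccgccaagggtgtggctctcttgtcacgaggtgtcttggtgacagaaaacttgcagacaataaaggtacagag

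The libraries held 6777 barcodes and 103267738 unique molecular identifiers (UMIs) in IMQ+celastrol, 8236 barcodes and 119831835 UMIs in IMQ, and 10565 barcodes and 77880943 UMIs in normal. Each pair of libraries shared between 15 and 26 barcodes. All 10 members had UMIs in normal, and 9 had UMIs in each imiquimod library, where Flg2 had none.

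The members were read in a range of keratinocytes that the rule names Krt1+Krt10-high. It holds cells with at least 2% of their UMIs from Krt1 and Krt10, under 1% from markers of other lineages and under 1% from hair keratins. It numbered 264 IMQ+celastrol cells, 151 IMQ cells and 263 normal cells, or 4.11%, 1.89% and 2.52% of the cells kept. It is a range and not a cell type: 50, 42 and 58 of these cells lay between 2% and 2.5%, and 56, 46 and 87 cells outside it lay between 1.5% and 2%. The cells held a median of 32195.5, 33675 and 11310 UMIs in the IMQ+celastrol, IMQ and normal libraries, and class totals were 8773319, 4842262 and 2924084 UMIs. Levels are UMIs per 1000000 class UMIs (CPM, counts per 1000000), with exact 95% Poisson intervals that cover counting error only. The makeup of the range differed between libraries. Krt16, a keratin of activated epidermis, had a median of 0.81%, 1.33% and 0% of a cell's UMIs in the IMQ+celastrol, IMQ and normal libraries. Krt77, a keratin of resting mouse suprabasal cells, stood at 46.96, 2.27 and 16742 CPM and Krt14 at 11629, 11971 and 293 CPM. Markers of other lineages summed to 459, 429 and 240 CPM, with 27, 24 and 24 of 27 markers detected; Cdh19, Dct and Mlana were at 0 in IMQ and Cdh19, Dct and Pmel in normal. The part of keratin makeup, depth and these markers in the results below was not tested, except where a value is given.

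Lor, Ivl, Flg and Flg2 made up a smaller share of the UMIs in IMQ cells than in normal cells of this range, while Casp14 made up a larger one. Of the 10 genes, 8 were at least 2-fold lower in IMQ than in normal, against 18.6% of the 7309 genes at 10 CPM or more in either library. Casp14 alone was at least 2-fold higher, against 8.65% of genes, and Abca12 lay between. The median log2 ratio was -2.10 over the members and -0.32 over all genes. Leaving keratin, S100a, Stfa and Sprr genes out of the totals moved the median of all genes to -0.20, and Dmkn then had a ratio under 2-fold, leaving 7 members lower.

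**Figure D1:**
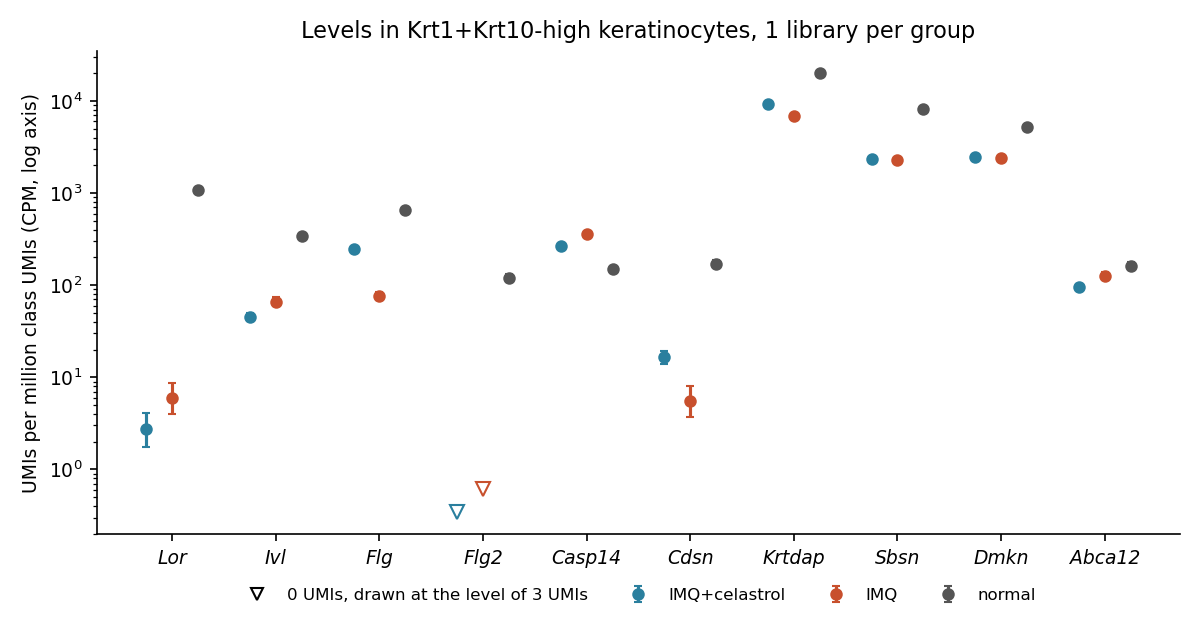
Level of each gene in Krt1+Krt10-high keratinocytes (CPM, log axis) in the IMQ+celastrol, IMQ and normal libraries, 1 point per library, bars for 95% Poisson intervals and open triangles for 0 UMIs drawn at the level of 3 UMIs. Lor, Flg2 and Cdsn stand furthest below normal in both imiquimod libraries, and Casp14 stands above normal in both.

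Loricrin showed the largest measured ratio. Lor held 29 UMIs (5.99 CPM, 4.01 to 8.60) in IMQ cells, against 3160 UMIs (1081 CPM, 1043 to 1119) in normal cells. This was 180.4-fold lower in IMQ (125.4 to 269.9). Of the 29 UMIs, 23 lay in 1 cell, and 7 of the 151 cells had any. With each cell thinned to 3000 UMIs, 0 of 150 IMQ cells held a Lor UMI, against 10% of 250 normal cells. At that depth a count of 0 allows up to 2% of cells with a UMI (3 of 150), and unthinned 4.64% of IMQ cells and 16.7% of normal cells had one. Fibroblasts, which should lack Lor and held a median of 9162 UMIs in IMQ and 4410 in normal before thinning, held it in 0.13% of thinned IMQ cells and 0.91% of thinned normal cells. Leaving out the cells with the highest doublet scores, 513 of 8008 in IMQ and 870 of 10428 in normal, took 9 IMQ and 18 normal cells from the range. This took a larger share of cells from normal than from IMQ and left 424 Lor UMIs in normal and a log2 ratio of -4.65 in place of -7.50.

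Involucrin was lower by less. Ivl stood at 66.3 CPM (59.2 to 74.0) in IMQ cells and 343 CPM (322 to 365) in normal cells, a 5.17-fold lower level in IMQ (4.56 to 5.89). After thinning, 12.7% of IMQ cells and 32.8% of normal cells held Ivl. Fibroblasts held it in 0.03% and 0.14%, so Ivl stood above that background in both libraries.

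Filaggrin was lower and filaggrin-2 was not seen after imiquimod. Flg held 369 UMIs (76.2 CPM, 68.6 to 84.4) in IMQ cells, against 1895 UMIs (648 CPM, 619 to 678) in normal cells, 8.50-fold lower in IMQ (7.60 to 9.53). Flg2 held 0 UMIs in IMQ cells, against 349 UMIs (119 CPM, 107 to 133) in normal cells. With 3 UMIs per library as the floor, Flg2 was at least 192.6-fold lower in IMQ. In all kept cells of the libraries, Flg2 again had 0 UMIs in IMQ, against 947 in normal. At matched depth Flg was held by 10% of IMQ cells (5.71% to 15.96%) and 16.4% of normal cells (12.03% to 21.6%), shares whose exact binomial intervals overlap. The thinned cells with Flg held a mean of 3.47 Flg UMIs in IMQ and 8.22 in normal. Fibroblasts held Flg in 0.03% and 0.14% of thinned cells. Without the cells of high doublet score, the log2 ratio of Flg was -1.99 in place of -3.09 and that of Flg2 -4.78 in place of -7.59.

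Caspase-14 went the other way. Casp14 stood at 359 CPM (343 to 377) in IMQ cells and 149 CPM (135 to 163) in normal cells, 2.42-fold higher in IMQ (2.17 to 2.69). After thinning, 54.7% of IMQ cells held it, against 27.2% of normal cells, and fibroblasts held it in 0.26% and 0.19%. In clusters with a Krt1+Krt10 share from 1%, in place of the 2% range, the log2 ratio of Casp14 was -0.53. Those were 2 clusters of different libraries: cluster 8 held 350, 596 and 5 cells of the IMQ+celastrol, IMQ and normal libraries, and cluster 25 held 5, 0 and 413.

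Corneodesmosin was found in few cells after imiquimod. Cdsn held 27 UMIs (5.58 CPM, 3.67 to 8.11) in IMQ cells, all in 5 cells, against 499 UMIs (171 CPM, 156 to 186) in normal cells. It was 30.6-fold lower in IMQ (20.8 to 46.9). After thinning, 1.33% of IMQ cells and 12% of normal cells held Cdsn, against 0.03% and 0.14% of fibroblasts.

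The 3 secreted-protein genes of chromosome 7 were abundant in nearly every cell and lower by smaller factors. Krtdap stood at 6855 CPM in IMQ cells and 20119 CPM in normal cells, 2.93-fold lower in IMQ (2.90 to 2.97). Sbsn stood at 2272 CPM in IMQ cells and 8125 CPM in normal cells, 3.58-fold lower (3.50 to 3.66). Dmkn stood at 2431 CPM in IMQ cells and 5186 CPM in normal cells, 2.13-fold lower (2.08 to 2.19). Over all kept cells in place of this range, the log2 ratio of Krtdap was 0.58 and that of Dmkn -0.10. Abca12, the lipid transporter, was 127 CPM (117 to 138) in IMQ cells and 162 CPM (148 to 177) in normal cells, 1.27-fold lower (1.13 to 1.44). Its log2 ratio of -0.35 turned to 0.22 in cells with at least 5% of UMIs from Krt1 and Krt10, 0.11 after thinning and 0.69 over all kept cells.

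The members differed in how evenly cells carried them. The 5 cells richest in Lor held 70.7% of its UMIs in normal cells, and the 5 richest in Flg held 66.1% in IMQ cells and 48.1% in normal cells. For Casp14, Krtdap, Sbsn, Dmkn and Abca12, the 5 richest cells held between 6.52% and 17.2% of the UMIs in those libraries. Poisson and ratio intervals leave out this spread between cells. Those of Lor, Flg, Flg2 and Cdsn are too narrow, and those of the other members may be too. Leaving out the 5 richest cells of each gene in each library kept the same 8 genes at least 2-fold lower in IMQ than in normal, with log2 ratios of -9.57 for Lor and -3.70 for Flg.

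**Figure D2:**
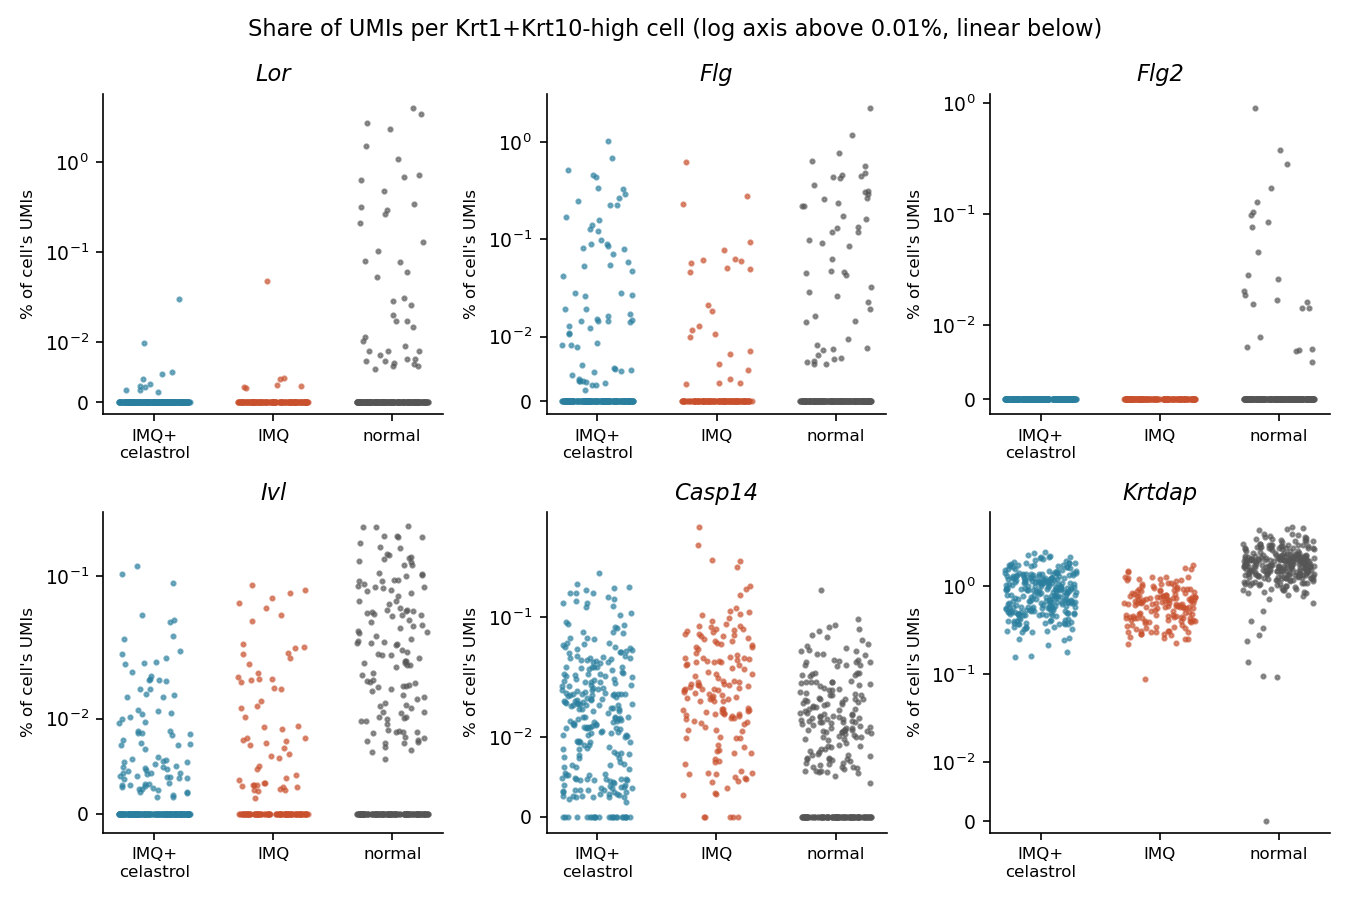
Share of a cell's UMIs (percent, log axis above 0.01% and linear below) for 6 genes in Krt1+Krt10-high cells of the IMQ+celastrol, IMQ and normal libraries, 1 point per cell. Lor and Flg2 are carried by a small set of normal cells, Flg by a minority of cells in each library, Casp14 by most cells and Krtdap by nearly all.

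Cells rich in Flg differed between libraries in what else they carried. These cells were chosen by a member's own level, at 0.2% of UMIs or more, and are given as a description. They numbered 13 in IMQ+celastrol, 3 in IMQ and 31 in normal. Their summed Flg level was 4247, 3206 and 8854 CPM in the IMQ+celastrol, IMQ and normal libraries. Their Lor level was 34.7, 360 and 16909 CPM in the same order of libraries, and the IMQ value rests on 23 UMIs in 1 cell. Flg2 had 0, 0 and 846 UMIs in them. Casp14 was closer between the libraries, at 1280, 2127 and 1291 CPM. No cell of either imiquimod library reached 0.2% of UMIs from Lor (highest 0.03% in IMQ+celastrol and 0.05% in IMQ), against 25 normal cells, the highest at 10.05%.

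The other members were also read in cells with a Flg UMI, which were not matched for depth. Of the 67, 26 and 53 cells with a Flg UMI in the IMQ+celastrol, IMQ and normal libraries, Lor was also found in 4.48%, 7.69% and 58.5%, against 4.06%, 4% and 6.19% of the cells without Flg. Ivl was also found in 70.1%, 65.4% and 94.3% of them and Cdsn in 23.9%, 11.5% and 60.4%. Across cells of the range, the Pearson correlation of log levels between Lor and Flg was 0.24, 0.36 and 0.80 (264, 151 and 263 cells), while that between Flg and Casp14 was 0.71, 0.64 and 0.50. These correlations share library and depth and are descriptions.

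**Figure D3:**
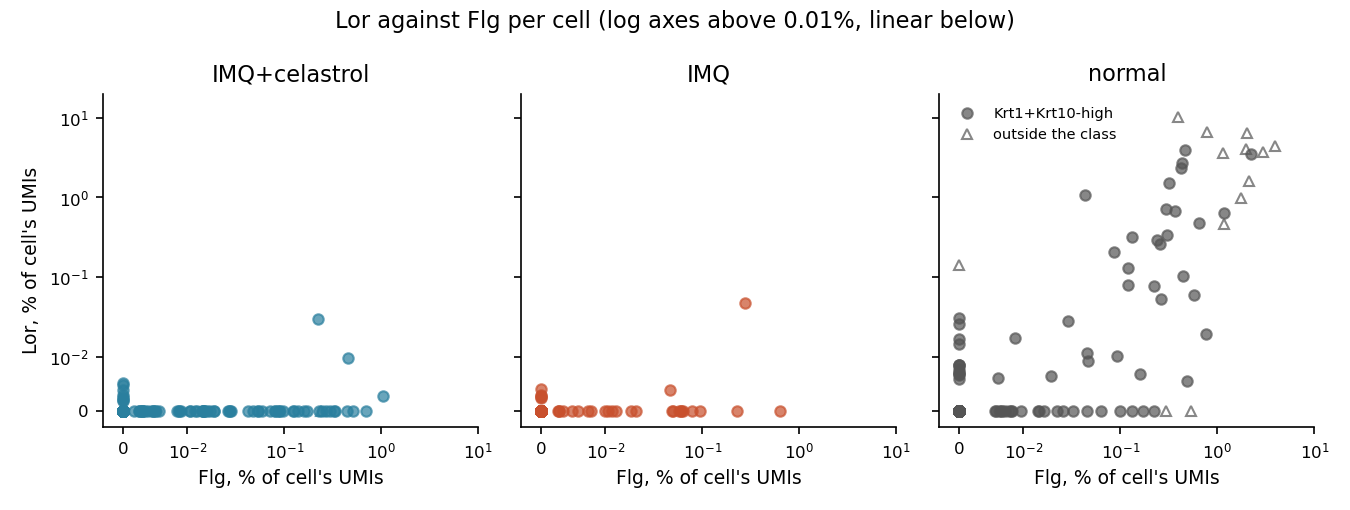
Lor against Flg per cell, both as percent of the cell's UMIs (log axes above 0.01%, linear below), in the IMQ+celastrol, IMQ and normal libraries; circles are Krt1+Krt10-high cells and open triangles are cells outside that range with at least 0.2% of UMIs from Lor, Flg and Flg2. Most normal cells rich in Flg also carry Lor, and the Flg-rich cells of the imiquimod libraries stay near 0 for Lor.

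Part of the normal signal lay outside the Krt1+Krt10-high range. In the normal library, cells with no class held 59.6% of Lor UMIs, 51.5% of Flg UMIs and 62.9% of Flg2 UMIs, against 36.3%, 40.3% and 36.9% in the range. Of the 36 normal cells with at least 0.2% of UMIs from Lor, Flg and Flg2 together, 23 were in the range and 13 had no class, and their Krt1+Krt10 share ran from 0% to 6.74%. In IMQ the range held 91.3% of Flg UMIs and in IMQ+celastrol 86.8%. For Lor the range held 19.0% in IMQ and 14.5% in IMQ+celastrol, with 62.1% and 64.2% in Krt5+Krt14-high cells. Over all kept cells Lor stood at 1.61, 1.28 and 112 CPM and Flg at 24.6, 3.39 and 60.5 CPM in the IMQ+celastrol, IMQ and normal libraries, so the order of the libraries was the same without the range for Flg but not for Lor between the imiquimod libraries. Fewer cells of a kind and less RNA per cell cannot be told apart in those sums.

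The study's aim was the action of celastrol in this psoriasis model, so IMQ+celastrol was read against IMQ. Flg and Cdsn were at least 2-fold higher in IMQ+celastrol than in IMQ, against 9.17% of the 13136 genes with more than 3 UMIs over the pair of libraries. Lor was at least 2-fold lower, against 6.30%. Among the 8 members at 10 CPM or more in either library, 2 were higher and 0 lower, against 2.29% and 2.11% of 6718 genes. Their median log2 ratio was 0.03, and that of all genes 0.04.

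Filaggrin stood at 249.8 CPM (239 to 261) in IMQ+celastrol cells, against 76.2 CPM (68.6 to 84.4) in IMQ cells, 3.28-fold higher with celastrol (2.94 to 3.67). In IMQ+celastrol, 2192 UMIs lay in 67 of 264 cells, and the 5 richest held 49.8%. In IMQ, 369 UMIs lay in 26 of 151 cells, and the 5 richest held 66.1%. At matched depth the shares of cells with Flg were 13.6% (9.74% to 18.4%) in IMQ+celastrol and 10% (5.71% to 15.96%) in IMQ, which overlap in their counting intervals. The log2 ratio of Flg was 2.27 without the 5 richest cells of each library and 1.02 after thinning, with a main value of 1.71. Cdsn held 144 UMIs (16.4 CPM, 13.8 to 19.3) in 21 IMQ+celastrol cells, against 27 UMIs (5.58 CPM, 3.67 to 8.11) in 5 IMQ cells, 2.94-fold higher with celastrol (1.94 to 4.62). After thinning its log2 ratio was 0.92.

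Loricrin and filaggrin-2 were not higher with celastrol. Lor held 24 UMIs (2.74 CPM, 1.75 to 4.07) in IMQ+celastrol cells, against 29 UMIs (5.99 CPM, 4.01 to 8.60) in IMQ cells. The ratio was 0.46 (0.25 to 0.81), and without the 5 richest cells of each library its log2 value was 0.71, from 6 and 2 UMIs. The Lor level of Krt5+Krt14-high cells, which should carry little Lor, was 2.20 and 1.93 CPM in IMQ+celastrol and IMQ. Flg2 held 0 UMIs in both, among 8773319 class UMIs in IMQ+celastrol and 4842262 in IMQ.

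The other members differed by less than 2-fold between the imiquimod libraries. Krtdap was 1.34-fold higher with celastrol (1.32 to 1.35), at 9165 CPM in IMQ+celastrol and 6855 CPM in IMQ. Sbsn (2339 and 2272 CPM) and Dmkn (2472 and 2431 CPM) had ratios of 1.03 (1.01 to 1.05) and 1.02 (0.99 to 1.04). Casp14 was 1.35-fold lower with celastrol (1.26 to 1.43), at 267 CPM in IMQ+celastrol and 359 CPM in IMQ. Abca12 was 1.32-fold lower (1.19 to 1.47), at 96.1 and 127 CPM, and Ivl 1.48-fold lower (1.27 to 1.71), at 44.9 and 66.3 CPM. In cells with at least 5% of UMIs from Krt1 and Krt10 the log2 ratio of Ivl was 1.12. In clusters with a share from 1% the log2 ratios were 0.47 for Casp14, 0.11 for Abca12 and 0.64 for Ivl, so the direction of these 3 genes depends on how the cells are taken.

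Set beside normal, IMQ+celastrol cells were low for most members. This comparison shares its normal cells with that of IMQ over normal. In IMQ+celastrol, 8 members were at least 2-fold lower than in normal, against 14.8% of 7313 genes, and 0 were higher, against 7.78%. Among these, Flg was 2.59-fold lower (2.44 to 2.76), Krtdap 2.20-fold lower (2.17 to 2.22) and Dmkn 2.10-fold lower (2.05 to 2.14). Casp14 was 1.79-fold higher (1.62 to 1.99). Lor was 395-fold lower (265 to 618), Flg2 at least 349-fold lower and Cdsn 10.4-fold lower (8.62 to 12.6).

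**Figure D4:**
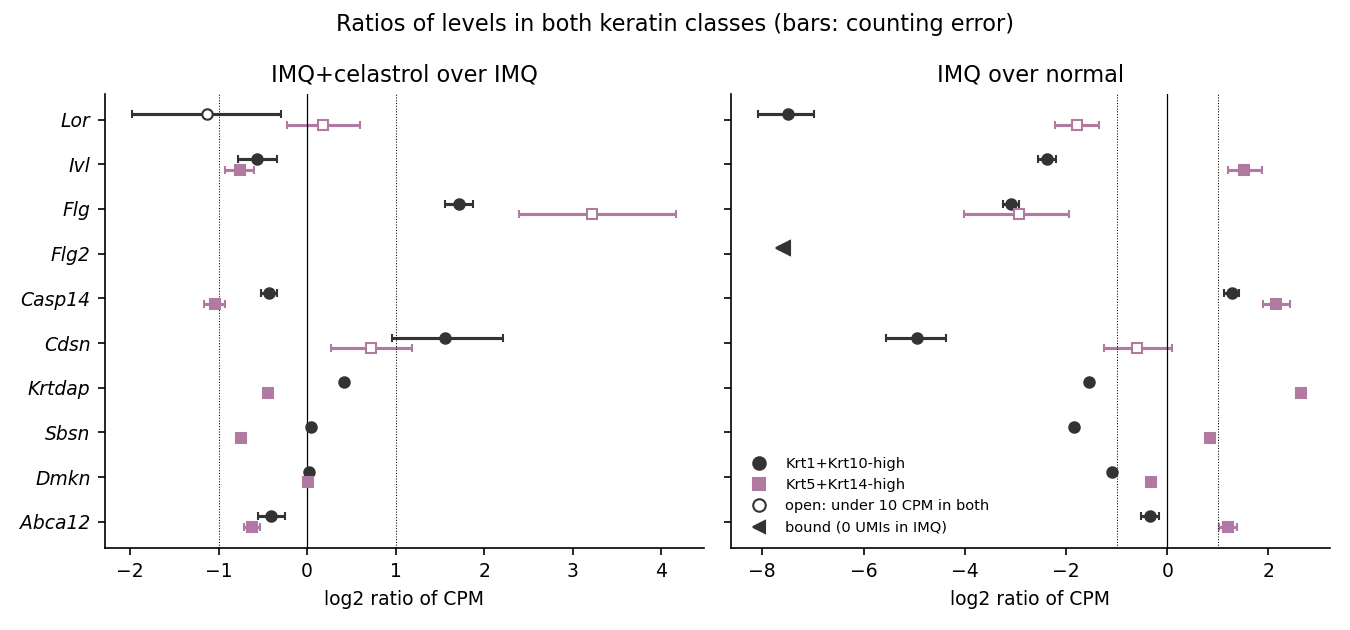
Log2 ratio of CPM for each gene, IMQ+celastrol over IMQ (left) and IMQ over normal (right), in Krt1+Krt10-high cells (circles) and Krt5+Krt14-high cells (squares), with 95% intervals of counting error and dotted lines at 2-fold. Krtdap, Ivl, Sbsn and Abca12 lie on opposite sides of 0 in the 2 classes for IMQ over normal. Only Krtdap and Ivl pass 2-fold in both. Flg lies above 0 in both classes for IMQ+celastrol over IMQ.

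In Krt5+Krt14-high keratinocytes, the basal-keratin range, more of the members at 10 CPM or more were higher than lower in IMQ. This range holds cells with at least 1% of UMIs from Krt5 and Krt14 and under 2% from Krt1 and Krt10, and numbered 1529 cells in IMQ+celastrol, 1146 in IMQ and 1490 in normal. Its makeup differed too: cells with at least 1% of UMIs from Krt16 were 10.2%, 25.8% and 0.13% of it in IMQ+celastrol, IMQ and normal, and median UMIs per cell were 27719, 40345.5 and 8347, whose part in the values was not tested. Of the 6 members at 10 CPM or more there, 4 were at least 2-fold higher in IMQ than in normal, against 8.02% of 7852 genes, and 0 were lower, against 10.6%. Krtdap stood at 2761 CPM in IMQ+celastrol, 3737 CPM in IMQ and 599 CPM in normal cells, 6.24-fold higher in IMQ than in normal (6.10 to 6.38). At matched depth 77.9% of IMQ+celastrol, 96.1% of IMQ and 21.6% of normal cells held Krtdap, against 17.0%, 5.95% and 3.25% of fibroblasts. Ivl stood at 10.6, 17.9 and 6.22 CPM in IMQ+celastrol, IMQ and normal, 2.88-fold higher in IMQ than in normal (2.31 to 3.64). Casp14 stood at 18.5, 38.2 and 8.61 CPM, 4.44-fold higher (3.69 to 5.39), and Abca12 at 31.2, 48.0 and 20.9 CPM, 2.30-fold higher (2.03 to 2.60). Sbsn was 1.80-fold higher and Dmkn 1.24-fold lower. Lor, Flg, Flg2 and Cdsn were under 10 CPM in all 3 libraries, with 106, 119, 0 and 107 UMIs in IMQ+celastrol, 95, 13, 0 and 66 in IMQ, and 92, 28, 2 and 28 in normal. The class totals behind these counts were 48239900, 49136013 and 13818297 UMIs in IMQ+celastrol, IMQ and normal. Set against those totals, Lor, Flg and Cdsn were lower in IMQ than in normal. In IMQ+celastrol over IMQ, Casp14 alone was at least 2-fold lower (2.06-fold, 1.90 to 2.24), against 1.88% of 7389 genes, and 0 of 6 members were higher, against 1.33%.

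Keratinocytes were also ordered by their Krt1+Krt10 share, over cells with at least 0.1% of UMIs from these keratins or at least 1% from Krt5 and Krt14. Casp14 was higher with each range of that share in both imiquimod libraries. In cells at 5% to 20% it reached 553 CPM in IMQ+celastrol (57 cells), 830 CPM in IMQ (27 cells) and 303 CPM in normal (20 cells). Flg in the same cells was 1015, 216 and 1936 CPM, from 1652, 143 and 447 UMIs. In cells at 2% to 3%, Flg was 31.5, 16.3 and 14.4 CPM. The normal Flg level did not follow the share, at 519 CPM in cells at 0.1% to 0.5%, 149 CPM at 0.5% to 1% and 218 CPM at 1% to 2%. These levels rest on 8, 6 and 13 cells with Flg. The percent of normal cells with a Flg UMI was 0.39% under 0.1%, 4.17% at 2% to 3%, 30.9% at 3% to 5% and 50% at 5% to 20%. Lor stayed at or under 12.7 CPM in every range of the imiquimod libraries. In normal its level varied without following the share, at 1145 CPM at 0.1% to 0.5%, 46.99 CPM at 0.5% to 1%, 895 CPM at 1% to 2%, 211 CPM at 2% to 3% and 1819 CPM at 3% to 5%. These levels rest on 15, 8, 15, 9 and 26 cells with Lor. The percent of normal cells with a Lor UMI was 4.30% under 0.1%, 7.5% at 2% to 3%, 21.1% at 3% to 5% and 45% at 5% to 20%. Krtdap ran from 1788, 2883 and 275 CPM in IMQ+celastrol, IMQ and normal cells under 0.1% to 10675, 7180 and 24125 CPM at 5% to 20%.

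**Figure D5:**
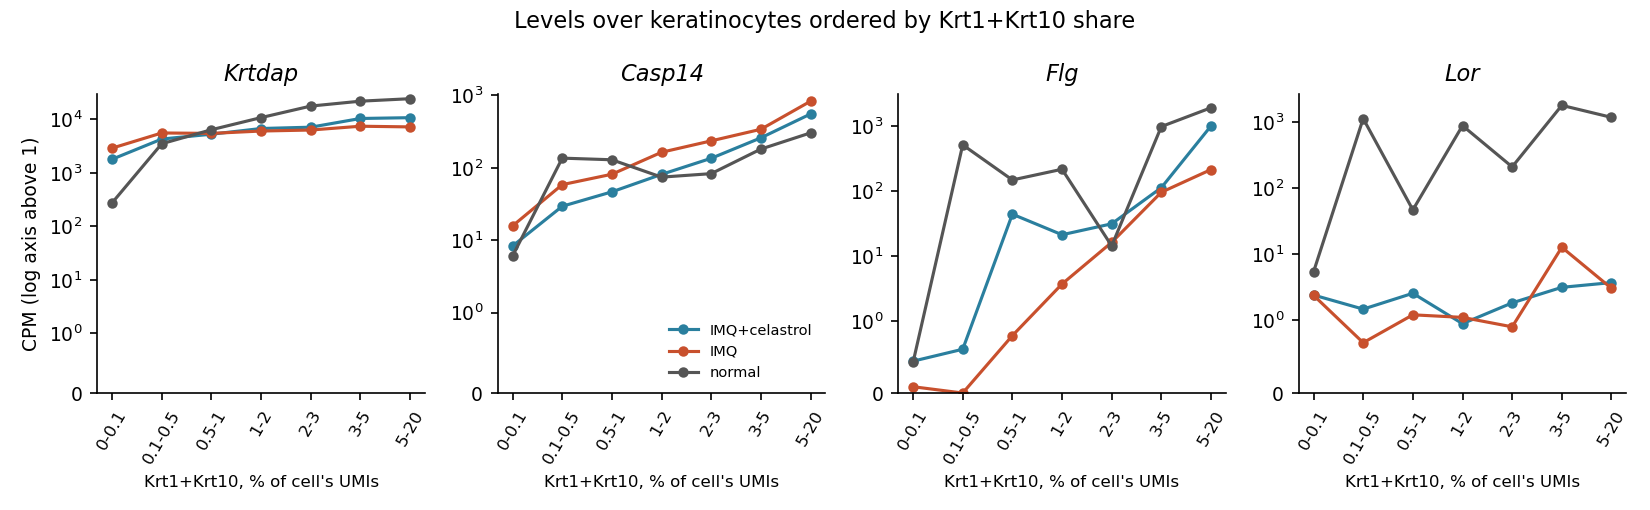
Levels of Krtdap, Casp14, Flg and Lor (CPM, log axis above 1) in keratinocytes grouped by the percent of a cell's UMIs from Krt1 and Krt10, 1 line each for the IMQ+celastrol, IMQ and normal libraries. Krtdap of the imiquimod libraries is above normal at the low end and below it at the high end, and Lor stays below 20 CPM at each range in both imiquimod libraries.

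The lower Lor and Flg of imiquimod cells was also seen within a shared band of Krt16. In cells with 0.1% to 1% of UMIs from Krt16 (117 cells in IMQ+celastrol, 44 in IMQ and 27 in normal), Lor was 3.71, 0.72 and 2287 CPM and Flg 271, 56.2 and 1582 CPM. The normal values rest on 5 cells with Lor and 5 with Flg. Casp14 was 246, 267 and 102 CPM in these cells. In cells under 0.1% (26, 5 and 235 cells), Lor was 1.56, 0 and 947 CPM, Flg 51.6, 0 and 543 CPM and Casp14 167, 92.1 and 155 CPM, so with 5 IMQ cells Casp14 was lower in IMQ than in normal. The single normal cell above 1% could not be compared.

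Genes that work on the members were read from a list of filaggrin-processing and crosslinking enzymes. Of 17 listed genes 12 reached 10 CPM, and 5 were at least 2-fold lower and 3 higher in IMQ than in normal. Over all genes the shares were 18.6% lower and 8.65% higher. Klk5, Klk7 and Klk8, serine proteases of the upper epidermis that take part in desquamation, had log2 ratios of -4.87, -2.97 and -2.07. Klk5 stood at 34.9, 15.3 and 446 CPM in IMQ+celastrol, IMQ and normal, and Klk7 at 186, 77.2 and 606 CPM. Their inhibitor Spink5 stood at 136, 281 and 781 CPM, with a log2 ratio of -1.48 for IMQ over normal. The other gene at least 2-fold lower was Cst6, a cystatin protease inhibitor. Tgm3, a transglutaminase that crosslinks envelope proteins, was 214 CPM in IMQ and 21.9 CPM in normal (log2 ratio 3.29), and Tgm1 and Tgm5, also transglutaminases, were higher by 1.61 and 1.09. In IMQ+celastrol over IMQ, Klk7 and Klk5 were higher by log2 ratios of 1.27 and 1.19. Spink5 was lower, with a log2 ratio of -1.05. These were the 2 higher and 1 lower of 12, against 2.29% and 2.11% of all genes. Spink5, Cst6, Tgm1 and Tgm5 were named after their values were seen in IMQ over normal.

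The list of other envelope genes held more higher than lower genes. Of 48 other epidermal differentiation complex and envelope genes in the table, 21 reached 10 CPM. Of the 21, 14 were at least 2-fold higher and 5 lower in IMQ than in normal, against 8.65% and 18.6% of all genes. The median log2 ratio of the 21 was 3.26. Sprr2d, a small proline-rich envelope precursor, held 9966 UMIs (2058 CPM) in IMQ cells and 5 UMIs (1.71 CPM) in normal cells. Sprr2i, Sprr2b and Sprr2e were also far higher, with 917, 927 and 1844 UMIs in IMQ against 1, 0 and 6 in normal. The Sprr2 genes are near-identical copies, so counts of single copies are uncertain. Sprr1 and Sprr2 genes were most of the 14 higher genes, so that count and the median lean on related genes. The 5 lower genes, named after their values were seen, were Hrnr (log2 ratio -5.31), a filaggrin-like gene, Kprp (-5.77), Evpl (-1.08) and Ppl (-1.07), envelope plakins, and Nccrp1 (-1.31). In IMQ+celastrol over IMQ, 9 of 20 were at least 2-fold lower and 0 higher, against 2.11% and 2.29% of all genes. Most of the 9 were Sprr2 genes, among them Sprr2e (-2.69), Sprr2d (-2.03) and Sprr2i (-1.68).

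Desmosome, lipid and regulator lists gave mixed values, to be read against 18.6% of all genes lower and 8.65% higher in IMQ than in normal. For IMQ+celastrol over IMQ, 2.11% of all genes were lower and 2.29% higher. Of 11 desmosome genes, 1 was at least 2-fold lower in IMQ than in normal (Dsg1a, a desmoglein of the upper epidermis, -1.42) and 2 were higher. The 2 higher genes, named after their values were seen, were the desmocollin Dsc2 (4.25) and the desmoglein Dsg3 (2.23). The desmocollins Dsc3 (-0.98) and Dsc1 (-0.62) and the plakophilin Pkp3 (-0.46) had smaller ratios, as did Dsp (-0.67), Dsg1b (-0.34) and Dsc1 (-0.32) in IMQ+celastrol over IMQ, where 1 of 11 was lower. Of 17 genes of lamellar lipid and ceramide metabolism, 6 were lower and 1 higher. The ceramide glucosyltransferase Ugcg was higher (log2 ratio 1.63), and the ceramidase Acer1 (-1.62) and the sphingomyelinase Smpd1 (-1.55) were lower. With celastrol over IMQ, 3 of 17 were at least 2-fold lower and 0 higher. The 3 were Ugcg (-1.22) and, named after their values were seen, Sdr9c7 (-1.29) and Lipk (-1.83). Smpd1 (-0.57) and the lipoxygenase Alox12b (-0.66) had smaller ratios. Of 25 regulators of late differentiation, 5 were lower and 6 higher. Prdm1, which encodes the repressor Blimp1, stood at 76.5, 249 and 7.18 CPM in IMQ+celastrol, IMQ and normal, a log2 ratio of 5.12 for IMQ over normal and -1.71 for IMQ+celastrol over IMQ. Gata3 (-1.98) was lower and Ovol1 (1.92) and Nfe2l2 (1.88) were higher in IMQ than in normal. With celastrol over IMQ, 2 regulators were lower, Prdm1 and Grhl3 (-1.26), a regulator of barrier genes, and 0 were higher; Hopx had a log2 ratio of -0.99.

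Other genes followed the members from cell to cell. Likeness was the Pearson correlation with the mean of the members across Krt1+Krt10-high cells, averaged over the 3 libraries, among 9579 genes. The 8 most alike were Cnfn (0.76), which encodes cornifelin, an envelope protein, Lypd5 (0.74), Nccrp1 (0.73), Ly6g6c (0.70), Il1f5 (0.69), the interleukin-36 receptor antagonist, Mboat2 (0.67), Alox12b (0.66), a lipoxygenase of barrier lipid, and Blmh (0.65), a protease of filaggrin breakdown. Their levels between libraries varied. Cnfn stood at 386, 888 and 363 CPM and Blmh at 463, 699 and 627 CPM in IMQ+celastrol, IMQ and normal, while Mboat2 stood at 34.99, 39.9 and 284 CPM. In the same order, Lypd5 was 47.3, 42.5 and 164 CPM, Nccrp1 119, 96.6 and 240 CPM and Ly6g6c 778, 816 and 1997 CPM. Alox12b was 27.4, 43.2 and 106 CPM and Il1f5 59.5, 149 and 133 CPM.

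Outside keratinocytes the members were low. In fibroblasts Lor stood at 0.39, 0.32 and 3.62 CPM and Flg at 0.56, 0.12 and 0.39 CPM in IMQ+celastrol, IMQ and normal, and Flg2 had 0 UMIs in fibroblasts, immune, endothelial, mural and glial or melanocytic cells of all 3 libraries. The abundant members gave more: Krtdap stood at 61.1, 33.5 and 49.4 CPM in fibroblasts and 81.7, 32.0 and 13.0 CPM in immune cells. These levels stood beside 9165, 6855 and 20119 CPM in the Krt1+Krt10-high range. Mural cells of the normal library held Lor at 12.8 CPM, from 35 UMIs in 394 cells. In 46 hair sheath and shaft cells of the normal library, Dmkn stood at 1551 CPM and Sbsn at 541 CPM, and Flg and Flg2 had 0 UMIs.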

How the data were processed

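Gene counts were used as the authors deposited them, unnormalized UMI counts per gene and cell in 3 libraries, whose headers name Cell Ranger 4.0.0, on mm10 or GRCm38 per the submitters' processing notes. Further upstream settings are not given in the sources used here. Nothing says how many animals stand behind a library. Cells with at least 300 genes and at most 20% mitochondrial UMIs were kept, which left 6422 of 6777 (IMQ+celastrol), 8008 of 8236 (IMQ) and 10428 of 10565 (normal).

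Classes are ranges of UMI shares per cell. UMIs were summed per class and library and divided by the class total (CPM). A gene was counted as at least 2-fold lower or higher, and lists and backgrounds used genes at 10 CPM or more in either library. A library with 0 UMIs was set to 3 UMIs, which gives a bound. Intervals (95%) are exact Poisson for levels, exact conditional binomial for ratios and exact Clopper-Pearson for shares of cells, with 3 cells of the total as the limit for a share of 0; all cover counting error only. Thinning drew 3000 UMIs per cell and left out 0, 1 and 13 shallower cells of the range in IMQ+celastrol, IMQ and normal. No doublets were left out in the values reported; Scrublet called 89, 0 and 234 cells, so its calls were not used, and 1 alternative left out the highest scores, 330, 513 and 870 cells, a share that grows with the number of cells in a library and was largest in normal. Ratio code was tested on simulated counts. The members and lists were chosen with earlier results of these data known. Named beyond the members were, per list, up to 4 genes with the largest ratio of IMQ over normal and up to 3 of IMQ+celastrol over IMQ, at 50 CPM or more in a library, plus the 8 genes most like the members; others are marked as chosen after their values were seen. A gene that this rule names is not reported here. Krt85 was not among the hair markers used, and 13 of 14 were. Alternatives changed the keratin cut, class finding, scaling, depth, doublets and cells left out. Python 3.11.15, numpy 2.4.6, scipy 1.17.1, pandas 2.3.3, scanpy 1.11.5 and matplotlib 3.10.9 were used.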

Additional observations from a re-analysis of the deposited data

Results flagged for a closer look

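For 2 members IMQ was at least 2-fold higher than normal in Krt5+Krt14-high keratinocytes and at least 2-fold lower in Krt1+Krt10-high keratinocytes. The log2 ratio of IMQ over normal for Krtdap was 2.64 in Krt5+Krt14-high cells and -1.55 in Krt1+Krt10-high cells. For Ivl it was 1.53 in Krt5+Krt14-high cells and -2.37 in Krt1+Krt10-high cells. Sbsn and Abca12 were also higher in IMQ in the first class and lower in the second, without reaching 2-fold in both. With 1 library per group the difference between the classes was not tested.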

How the results depend on the processing

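Counts of members past 2-fold were recomputed under 13 settings besides the reported one, and 40 of 52 counts stayed within 1.5 times. Of 226 recomputed log2 ratios of single members, 107 stayed inside the reported counting interval. Another 114 did not, which includes Flg2, whose bound has no interval. The other 5, of members past 2-fold in the reported setting, changed direction. For IMQ over normal, the count of lower members was 7 or 8 under every setting but all kept cells, where it was 5 (Lor, Flg, Flg2, Ivl and Cdsn), and 0 members were higher with all kept cells and with clusters from 1%. Casp14 then had a log2 ratio of -0.53 (clusters from 1%) and Krtdap 0.58 (all kept cells). For IMQ+celastrol over IMQ, the reported lower member, Lor, was lost and 0 were lower with cuts at 1% and 5%, clusters from 1%, mean shares per cell, thinning, the 5 richest cells left out, all kept cells, and members under 10 CPM not counted. Its log2 ratio was 0.29 (cut at 5%), 0.71 (5 richest cells left out) and 0.33 (all kept cells). With thinning 1 member was higher (Flg, not Cdsn). The cause of these shifts was not tested.

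Log2 ratios of IMQ over normal ranged from -9.57 to -4.65 for Lor, from -10.71 to -3.91 for Flg2, from -5.96 to -1.89 for Flg, from -7.41 to -2.53 for Cdsn and from -4.25 to -1.03 for Ivl. For IMQ+celastrol over IMQ, Flg ranged from 1.02 to 3.52, Casp14 from -0.71 to 0.47, Abca12 from -0.77 to 0.11 and Ivl from -0.70 to 1.12. Clusters from 2% held no IMQ cell and gave no value; clusters from 1%, all kept cells and the 5 richest cells left out were settings chosen after seeing the data. Lor, Flg2 and Cdsn rest on under 30 UMIs in IMQ, so these small counts limit their ratios. No paired analysis was possible because each group has 1 library.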
